A study of Mus musculus with 2 samples.

Results

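Pericentral sinusoidal endothelial cells line the end of the liver sinusoid that opens into the central vein. They were sought here by their signalling transcripts. Droplet barcodes with at least 200 detected genes and at most 10% mitochondrial unique molecular identifiers (UMIs, each standing for 1 captured transcript) were kept. A kept barcode was called endothelial when Kdr, Ptprb, Stab2, Clec4g, Egfl7 and Aqp1 together had at least 4 UMIs, Clec4f, Cd5l and Vsig4 (Kupffer cell genes) together had at most 1, and Cd3e and Cd79a (T and B cell genes) had 0. It was called ligand-positive when Wnt2, Rspo3 and Wnt9b together had at least 1 UMI. The rule gave 729 ligand-positive barcodes among 1363 endothelial barcodes and 12576 kept barcodes, and since its members were chosen by the UMI counts of these genes, their levels describe the choice and are no finding.

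The samples come from livers of male C57Bl6/J mice that were lethally irradiated and given bone marrow from Trem2-/- or from Trem2+/+ littermate donors. After 6 weeks of recovery all mice ate a methionine- and choline-deficient diet for 4 weeks, a model of steatohepatitis. Live cells positive for CD45, the pan-leukocyte surface protein, were sorted, and equal shares from 4 mice made 1 pool, and so 1 sequencing library, per marrow genotype, read with 10x Genomics 5' version 2 chemistry. With 1 such pool per genotype there is no replicate, so no difference between the genotypes was tested, and every interval below is a 95% interval that covers counting error only. In a marrow chimera the liver endothelium is largely of the recipient, so the Trem2 genotype is that of the blood-derived cells around it.

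Sinusoidal endothelium is the fenestrated, scavenging lining of the liver. Along the path of the blood, from the portal vein to the central vein, it takes on different states. The cells near the central vein secrete WNT2 and WNT9B, ligands of frizzled receptors, and RSPO3, a secreted protein that keeps frizzled receptors at the surface of neighbouring cells. Together these maintain the beta-catenin programme of pericentral hepatocytes, including their glutamine synthesis and drug metabolism. In mouse, RSPO3 and WNT9B mark the central vein lining and its closest sinusoids more narrowly than WNT2 does.

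The Trem2-/- marrow pool held 453 ligand-positive and 349 other endothelial barcodes of 5978 kept, and the Trem2+/+ marrow pool held 276 and 285 of 6598. The targeted gene followed the labels: Trem2 had 6.82 CPM (UMIs of the gene per all UMIs of the set, scaled to counts per 1000000) in the kept barcodes outside the endothelial rule of the Trem2-/- pool and 216 CPM in those of the Trem2+/+ pool. Ligand-positive barcodes themselves had 3 Trem2 UMIs in the Trem2-/- pool and 34 in the Trem2+/+ pool. Of sinusoidal genes that the rule did not use, Stab1, a scavenger receptor, had 748 CPM in ligand-positive barcodes of the Trem2-/- pool and 654 CPM in those of the Trem2+/+ pool, against 44.7 CPM and 43.1 CPM in barcodes outside the endothelial rule. The sort was for CD45. Ptprc, which encodes CD45, had at least 1 UMI in 54 of 453 and in 47 of 276 ligand-positive barcodes. Lymphatic markers (4 genes) summed to 3.76 CPM and 1.96 CPM in these barcodes, and cholangiocyte markers (5 genes) to 3.22 CPM and 6.87 CPM. The pools shared 56 barcode sequences, of which 4 and 2 were ligand-positive.

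The rule selects partly by depth. Ligand-positive barcodes had a median of 3669 UMIs in the Trem2-/- pool and 3245 UMIs in the Trem2+/+ pool. The other endothelial barcodes had medians of 2044 UMIs in the Trem2-/- pool and 1703 UMIs in the Trem2+/+ pool. A single ligand UMI made the call for 211 of the 453 barcodes in the Trem2-/- pool and for 115 of the 276 in the Trem2+/+ pool, 2 UMIs for 98 and 70, and 3 or more for 144 and 91. At the edge of the endothelial rule, 6 and 8 members had exactly 4 endothelial UMIs, while 5 and 7 barcodes with a ligand UMI missed it with 3. The median member had 47 endothelial UMIs in the Trem2-/- pool and 37 in the Trem2+/+ pool, far from that edge.

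The share of endothelial barcodes that were ligand-positive climbed with depth in both pools. In the Trem2-/- pool it was 31.5% of barcodes under 1000 UMIs (exact Clopper-Pearson interval 23.4 to 40.4) and 80.0% of those with 6000 UMIs or more (70.5 to 87.5). In the Trem2+/+ pool it was 19.3% (12.3 to 27.9) and 75.6% (60.5 to 87.1) at the same depths. Over all depths the share was 56.5% (53.0 to 59.9) in the Trem2-/- pool and 49.2% (45.0 to 53.4) in the Trem2+/+ pool. After each barcode was thinned to 2000 UMIs, which left out 254 of 802 and 228 of 561 shallower ones, it was 48.0% (43.7 to 52.3) and 50.2% (44.6 to 55.6). At equal depth the intervals of the pools overlapped. Lymphocyte barcodes, which should lack the ligands, had a ligand UMI in 21 of 1806 (1.16%) at a median of 2891 UMIs in the Trem2-/- pool and in 8 of 1638 (0.488%) at a median of 2315 UMIs in the Trem2+/+ pool. Because most of the deepest endothelial barcodes carry a ligand, the set is broader than a narrow pericentral band, and it is called ligand-positive here.

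**Figure D1:**
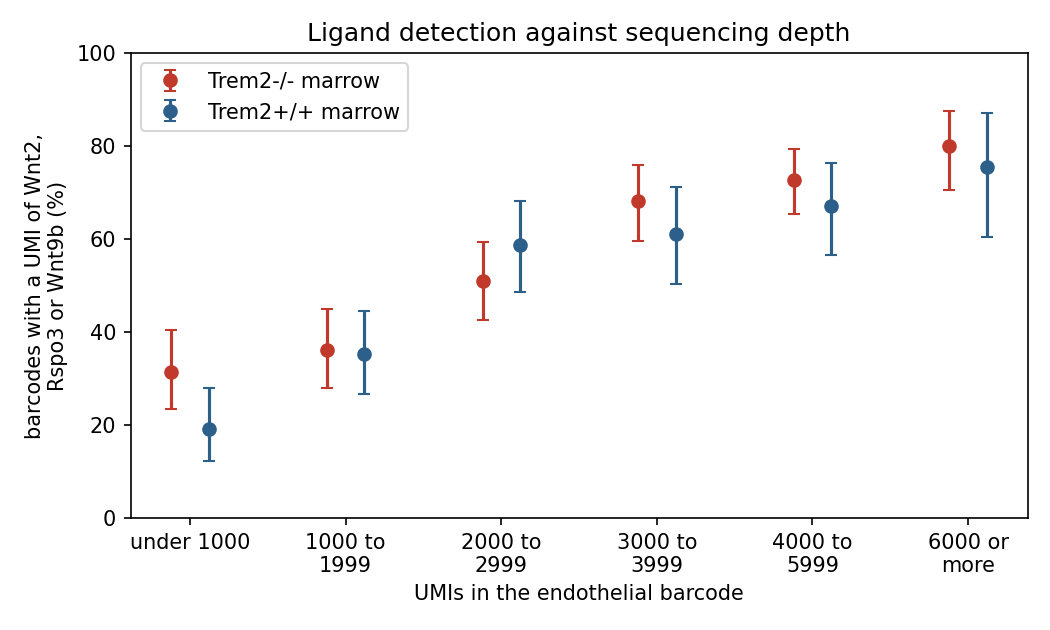
Share of endothelial barcodes with at least 1 UMI of Wnt2, Rspo3 or Wnt9b (vertical axis, %) by the UMIs in the barcode (horizontal axis, 6 depth classes), for the Trem2-/- marrow pool (red) and the Trem2+/+ marrow pool (blue). Points are shares and bars exact 95% binomial intervals; both pools climb, to 80.0% and 75.6% in the deepest class.

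Per kept barcode, the set was more frequent in the Trem2-/- pool: 7.58% of kept barcodes (6.92 to 8.28) were ligand-positive there and 4.18% (3.71 to 4.69) in the Trem2+/+ pool. All endothelial barcodes together were 13.4% and 8.50%. Endothelial cells are not the target of a CD45 sort, and the part of the gate in this difference was not tested.

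Wnt2, which encodes the more widely expressed ligand, was found in nearly every member. It had 923 UMIs in 432 of the 453 members of the Trem2-/- pool and 561 UMIs in 258 of the 276 of the Trem2+/+ pool. Its level was 495 CPM (464 to 528) in the Trem2-/- pool and 551 CPM (506 to 598) in the Trem2+/+ pool. The tenth of members with most Wnt2 held 31.4% of its UMIs in the Trem2-/- pool and 31.6% in the Trem2+/+ pool, so the transcript was spread over many barcodes.

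Rspo3 behaved differently from Wnt2. It had 507 UMIs in 82 members of the Trem2-/- pool and 533 UMIs in 65 members of the Trem2+/+ pool. The tenth of members with most Rspo3 held 92.1% and 90.2% of these UMIs. Single barcodes reached 42 Rspo3 UMIs in the Trem2-/- pool and 58 in the Trem2+/+ pool, against at most 15 and 17 for Wnt2. Wnt9b was the rarest ligand, with 80 UMIs in 34 members of the Trem2-/- pool and 46 UMIs in 23 members of the Trem2+/+ pool, or 42.9 CPM and 45.2 CPM.

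The ligands overlapped in part. Of the members, 359 in the Trem2-/- pool and 200 in the Trem2+/+ pool had Wnt2 alone. Rspo3 alone was found in 18 and 13, and Wnt9b alone in 0 and 2. Wnt2 with Rspo3 was found in 42 and 40, Wnt2 with Wnt9b in 12 and 9, Rspo3 with Wnt9b in 3 and 3, and all of them in 19 and 9. Most Wnt9b-positive barcodes thus carried another ligand as well. Kept barcodes outside the endothelial rule with 3 or more Rspo3 UMIs numbered 11 of 5176 in the Trem2-/- pool and 17 of 6037 in the Trem2+/+ pool.

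The promoters of the ligand genes are shown because their transcripts chose the cells, and that of Cyp26b1 because it was furthest up in the Trem2-/- pool among the genes named below. In GENCODE M21 on GRCm38, Wnt2 lies at chr6:17988940-18030585, Rspo3 at chr10:29452416-29535867, Wnt9b at chr11:103727364-103749821 and Cyp26b1 at chr6:84571414-84593908, all on the minus strand. Each promoter shown is 300 bases from RefSeq on GRCm38.p6, from 250 bases before the gene's start to 50 after it, written 5' to 3' on the gene's own strand. Capitals mark GATAA, a motif of GATA factors, and TATAAA, the TATA box, each searched as written and as its reverse complement. The Wnt2 window is chr6:18030396-18030695, the Wnt9b window chr11:103749772-103750071 and the Cyp26b1 window chr6:84593761-84594060, all on the minus strand. The RefSeq starts of Wnt2 and Cyp26b1 that these windows are counted from differ from the GENCODE ends given above. Rspo3 and Thbd have no entry in that table.
Wnt2: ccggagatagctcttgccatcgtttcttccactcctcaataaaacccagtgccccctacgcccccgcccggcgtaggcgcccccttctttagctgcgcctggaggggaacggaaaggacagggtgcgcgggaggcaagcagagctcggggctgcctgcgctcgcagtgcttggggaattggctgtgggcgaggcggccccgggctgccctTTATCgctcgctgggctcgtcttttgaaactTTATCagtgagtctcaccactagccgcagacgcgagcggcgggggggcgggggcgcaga
Wnt9b: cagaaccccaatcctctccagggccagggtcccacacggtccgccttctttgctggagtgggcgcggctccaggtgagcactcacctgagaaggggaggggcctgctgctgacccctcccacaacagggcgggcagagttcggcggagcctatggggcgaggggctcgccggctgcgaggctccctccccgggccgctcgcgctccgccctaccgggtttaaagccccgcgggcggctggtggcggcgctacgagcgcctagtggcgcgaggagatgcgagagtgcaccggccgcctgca
Cyp26b1: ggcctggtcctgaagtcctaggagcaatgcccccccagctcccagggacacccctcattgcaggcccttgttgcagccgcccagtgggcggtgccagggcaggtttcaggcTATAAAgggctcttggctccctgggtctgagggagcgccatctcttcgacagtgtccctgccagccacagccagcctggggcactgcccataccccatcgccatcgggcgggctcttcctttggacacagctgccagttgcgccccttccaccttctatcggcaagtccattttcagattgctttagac
The Wnt2 window held 2 matches to GATAA, both as its reverse complement TTATC. Of 32851 promoter windows of this length, 25.4% held at least 1 such match and 5.27% held 2 or more. Neither the Wnt9b nor the Cyp26b1 window held one. The Cyp26b1 window held 1 TATAAA, as did 13.6% of all windows at least once. None of these windows held AGGTCA, an element of nuclear receptors (found in 16.3% of windows), or CTTTGA, a motif of TCF/LEF factors (found in 16.0%).

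Ligand-positive barcodes were then set against other endothelial barcodes across all genes, within each pool, by summing UMIs over each set and scaling to CPM. Genes were used when the sets averaged at least 50 CPM and held at least 50 UMIs in each pool, which left 3167. In the Trem2-/- pool 57 of these (1.80%) were at least 1.5-fold higher in ligand-positive barcodes and 42 (1.33%) at least 1.5-fold lower, and in the Trem2+/+ pool 82 (2.59%) and 66 (2.08%). At least 1.5-fold higher in both pools were 14 genes, or 0.442%, and at least 1.5-fold lower were 16, or 0.505%. The median log2 ratio over all genes was 0.03 in the Trem2-/- pool and 0.01 in the Trem2+/+ pool. Most genes were thus close between the sets.

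Genes known from the pericentral end were mostly higher. Of 14 such genes that the rule did not use, 7 had enough counts. Of these 6 were above 0 and 1 below 0 in the Trem2-/- pool, and all 7 were above 0 in the Trem2+/+ pool. Past 1.5-fold higher in each pool were 4: Cdh13, Thbd, Ptgs1 and Kit. The list's median log2 ratio was 0.72 in the Trem2-/- pool and 0.82 in the Trem2+/+ pool. The list was chosen with earlier results of these data known, and the counts are to be read against the shares of all genes just given.

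Cdh13, which encodes T-cadherin, a surface receptor for adiponectin, had 92.8 CPM in ligand-positive and 20.03 CPM in other endothelial barcodes of the Trem2-/- pool, a log2 ratio of 2.21 (1.51 to 3.001). In the Trem2+/+ pool it had 90.3 CPM and 34.6 CPM, a log2 ratio of 1.38 (0.70 to 2.13). Thbd, which encodes thrombomodulin, the anticoagulant receptor for thrombin, had 181 CPM and 84.6 CPM in the Trem2-/- pool, and 175 CPM and 81.8 CPM in the Trem2+/+ pool. Its log2 ratio was 1.10 in each. Its direction was kept in all 15 alternative settings, with ratios no lower than 0.73 in the Trem2-/- pool and 0.69 in the Trem2+/+ pool.

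Ptgs1, which encodes the prostaglandin synthase COX-1, had log2 ratios of 0.95 (0.63 to 1.29) in the Trem2-/- pool and 1.08 (0.70 to 1.48) in the Trem2+/+ pool. Kit, which encodes the receptor for stem cell factor, had 332 CPM in ligand-positive and 201 CPM in other endothelial barcodes of the Trem2-/- pool, and 339.7 CPM and 192 CPM in the Trem2+/+ pool. Its log2 ratio of 0.72 in the Trem2-/- pool was 0.46 in barcodes without leukocyte UMIs. Plxnc1, a semaphorin receptor, and Gatm, an enzyme of creatine synthesis, differed little, with log2 ratios of 0.22 and 0.18 for Plxnc1 and of 0.23 and 0.04 for Gatm. Lhx6, a LIM-homeobox transcription factor below the count limit, had 69 UMIs in ligand-positive and 6 UMIs in other barcodes of the Trem2-/- pool, and 57 and 6 in the Trem2+/+ pool.

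Deeper barcodes reveal more genes, so the shares of barcodes with a UMI were compared after thinning to 2000 UMIs. Thbd was then found in 29.3% (23.8 to 35.2) of ligand-positive and 16.5% (12.4 to 21.3) of other barcodes in the Trem2-/- pool, and in 26.3% (19.8 to 33.7) and 14.5% (9.49 to 20.7) in the Trem2+/+ pool. Unthinned the shares were 36.6% and 18.3% in the Trem2-/- pool, and 39.1% and 14.7% in the Trem2+/+ pool. Cdh13 was found in 17.5% and 6.67% after thinning in the Trem2-/- pool, and in 15.6% and 6.63% in the Trem2+/+ pool. In lymphocyte barcodes Thbd was found in 0.609% and 0.549%, and Cdh13 in 0.498% and 0.183%.

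Genes known from the portal end of the sinusoid ran mostly the other way. Of 18 such genes 8 had enough counts, and 7 of the 8 were below 0 in each pool. The list's median was -0.57 in the Trem2-/- pool and -0.40 in the Trem2+/+ pool. Past 1.5-fold lower were 4 in the Trem2-/- pool and 2 in the Trem2+/+ pool, against 1.33% and 2.08% of all genes.

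Msr1, which encodes a scavenger receptor, had 162 CPM in ligand-positive and 286 CPM in other barcodes of the Trem2-/- pool, and 172 CPM and 288 CPM in the Trem2+/+ pool. Dll4, a Notch ligand of arterial and portal endothelium, had 60.1 CPM and 94.6 CPM in the Trem2-/- pool, and 49.1 CPM and 75.5 CPM in the Trem2+/+ pool. Without leukocyte UMIs the log2 ratio of Dll4 in the Trem2-/- pool was -0.31 and that of Msr1 in the Trem2+/+ pool -0.53, both within 1.5-fold. Efnb2, an arterial ephrin, differed between the pools, with log2 ratios of -1.30 (-1.80 to -0.80) in the Trem2-/- pool and -0.22 (-0.88 to 0.45) in the Trem2+/+ pool. Ltbp4, which binds latent TGF-beta, was lower without passing 1.5-fold in either pool, at -0.37 in the Trem2-/- pool and -0.47 in the Trem2+/+ pool. Ntn4, a netrin of basement membranes, passed it in the Trem2-/- pool alone, at -0.78 and -0.46. Over 15 alternative settings the highest Ntn4 ratio was -0.27 in the Trem2-/- pool and 0.28 in the Trem2+/+ pool. The exception was Gja4, which encodes the gap junction protein connexin 37: it had 199 CPM and 125 CPM in the Trem2-/- pool, and 184 CPM and 131 CPM in the Trem2+/+ pool.

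**Figure D2:**
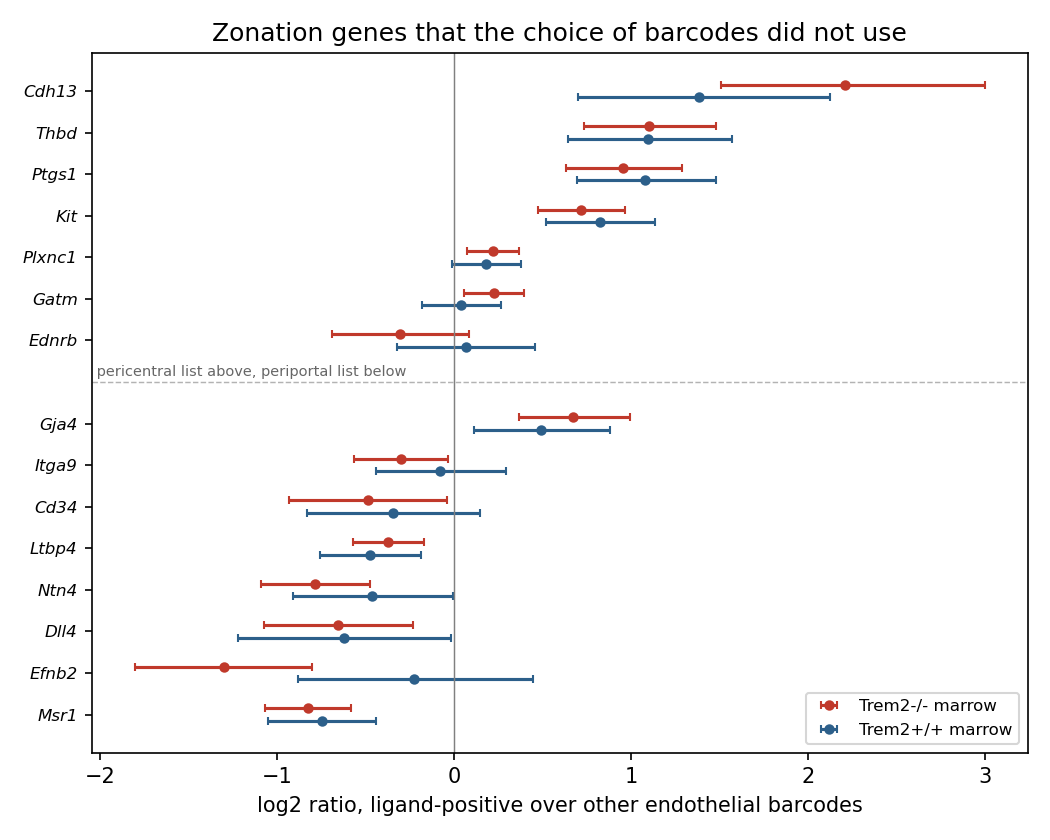
Log2 ratio of ligand-positive over other endothelial barcodes (horizontal axis) for pericentral genes (above the dashed line) and periportal genes (below it) with enough counts, in the Trem2-/- marrow pool (red) and the Trem2+/+ marrow pool (blue). Points are ratios of summed UMIs and bars 95% counting intervals; Cdh13, Thbd, Ptgs1 and Kit lie above 0.71 in both pools, and of the 8 periportal genes Gja4 lies above 0 in both.

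Other genes past 1.5-fold higher in both pools were on neither zonation list. Plvap, which encodes the diaphragm protein of fenestrae and caveolae, had log2 ratios of 0.66 and 1.04. Lgals1, a galectin, had 0.82 and 0.78. Jup, the junction protein plakoglobin, had 0.80 and 0.87. Mfsd5 (a molybdate transporter), Rnase4 (a secreted ribonuclease) and Ecm1 (an extracellular matrix protein) were also among them, as was Dcn. Of the 12 named genes on this side 9 came within 1.5-fold in at least 1 pool under at least 1 alternative. Rnase4 was at 0.18 and 0.38 in barcodes without leukocyte UMIs, and at 0.048 after thinning in the Trem2+/+ pool. In the Trem2-/- pool Ecm1 was at 0.30 without Dcn-rich barcodes, and Jup at 0.12 and Mfsd5 at 0.42 after thinning. Plvap was at 0.33 and 0.38 without Rspo3-rich barcodes, and Lgals1 at 0.48 after thinning in the Trem2+/+ pool.

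On the lower side, Ly6c1, a surface marker of capillary and arterial endothelium, was lowest of the genes that the naming rule allowed: it had 37.0 CPM in ligand-positive and 154 CPM in other barcodes of the Trem2-/- pool, and 37.3 CPM and 104 CPM in the Trem2+/+ pool. Cxcl9, a chemokine for T cells, had log2 ratios of -0.60 and -0.92, and Ttr, the hepatocyte gene for transthyretin, had -0.91 and -0.74. Without the deepest 5% of barcodes Cxcl9 was at -0.51 in the Trem2-/- pool and Ttr at -0.57 in the Trem2+/+ pool. The other 11 of the 16 lower genes were left out by the naming rule, which takes no gene whose level in the members was under 0.2 of that in barcodes outside the endothelial rule, nor immunoglobulin and similar classes. The 7 neutrophil markers summed to 551 CPM in ligand-positive and 1712 CPM in other barcodes of the Trem2-/- pool, and to 399 CPM and 1884 CPM in the Trem2+/+ pool. Their part in the result was not tested.

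Dcn, the stellate cell and fibroblast gene for decorin, had the highest ratios, 4.12 and 4.83, but few barcodes carried it. In the Trem2-/- pool 5 barcodes held 94.7% of its 361 UMIs in the set, and in the Trem2+/+ pool 5 held 97.8% of 274. These barcodes also held 1 to 85 UMIs of the other stellate markers and 25 to 126 endothelial UMIs. Without them the Dcn ratio was -0.09 in the Trem2-/- pool and -0.62 in the Trem2+/+ pool. Of the endothelial barcodes without a ligand, 0 had at least 5 Dcn UMIs. No doublet caller was run.

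Genes of other endothelial programmes were close between the sets. Of 26 general sinusoidal genes 25 had enough counts, and Plvap was the one past 1.5-fold in either direction; the median was 0.12 in the Trem2-/- pool and 0.01 in the Trem2+/+ pool. Stab1 had log2 ratios of 0.20 and 0.10, and Lyve1, the hyaluronan receptor, 0.26 and 0.03. Of 23 scavenging and lysosome genes 20 had enough counts, with medians of 0.07 and 0.03 and only Msr1 past 1.5-fold. Of 27 BMP and angiocrine genes 14 had enough counts, and Bmp2 and Bmp6, the endothelial regulators of hepatocyte hepcidin, had ratios of 0.14 and 0.03 for Bmp2 and 0.34 and -0.01 for Bmp6. Nos3, the endothelial nitric oxide synthase, and Inhbb, an activin subunit, were past 1.5-fold higher in the Trem2+/+ pool alone, at 0.65 and 0.78.

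Of 25 immediate-early and heat shock genes 19 had enough counts, with medians of -0.20 and -0.22. Past 1.5-fold lower were 5 and 3 of them, against 1.33% and 2.08% of all genes. The 25 genes summed to 5114 CPM in ligand-positive and 5851 CPM in other barcodes of the Trem2-/- pool, and to 4419 CPM and 5020 CPM in the Trem2+/+ pool. Outside the endothelial rule they summed to 15653 CPM and 15132 CPM, and the part of RNA from those cells was not tested. The 10 leukocyte markers summed to 883 CPM in ligand-positive and 1216 CPM in other barcodes of the Trem2-/- pool, and to 1614 CPM and 1606 CPM in the Trem2+/+ pool.

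The cells' own Wnt machinery was close between the sets. Of 28 Wnt pathway genes 9 had enough counts, with a median of 0.18 in the Trem2-/- pool and -0.02 in the Trem2+/+ pool and none past 1.5-fold higher. Tspan12, a co-receptor of frizzled 4, and Adgra2, a co-activator of endothelial Wnt signalling, were past 1.5-fold lower in the Trem2+/+ pool alone, at -0.85 and -0.61. Wls, which carries Wnt proteins to the surface, had ratios of 0.18 and -0.02. Fzd4, an endothelial frizzled receptor, had 0.23 and 0.43. Of shear-stress genes Klf2, a flow-induced transcription factor, had 0.32 and 0.28 and Thbd, also on that list, is given above.

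Since nearly all Rspo3 lay in few barcodes, endothelial barcodes with at least 3 Rspo3 UMIs were described apart, a limit set after the data were seen. There were 41 in the Trem2-/- pool and 31 in the Trem2+/+ pool, 5.11% (3.69 to 6.87) and 5.53% (3.79 to 7.75) of endothelial barcodes. Just outside the limit, 9 and 9 members had 2 Rspo3 UMIs, and just inside it 9 and 3 had 3. Of the Rspo3-rich barcodes 33 and 27 also had Wnt2, and 19 and 10 also had Wnt9b. Their median depths, 3926 and 3600 UMIs, were close to the 3665 and 3245 UMIs of members with Wnt2 alone.

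Thbd, Cdh13, Lhx6, Selp, Jam2 and Fabp4 were higher in the Rspo3-rich barcodes than in the Wnt2-only members, and Fcgr2b, Ctsl and Adam23 were lower. Of 2833 genes, 86 (3.04%) were at least 1.5-fold higher in Rspo3-rich than in Wnt2-only barcodes of both pools and 97 (3.42%) at least 1.5-fold lower. For Wnt2-only over other endothelial barcodes it was 7 (0.222%) and 12 (0.381%) of 3148. The Rspo3-rich sets hold fewer UMIs, 206003 and 126818 in all, and the middle 90% of genes lay between -0.76 and 0.69 in the Trem2-/- pool and between -0.98 and 0.92 in the Trem2+/+ pool.

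Of the 14 pericentral genes that the rule did not use, 8 had enough counts for Rspo3-rich over Wnt2-only barcodes. In each pool 5 of the 8 were past 1.5-fold higher, against 6.88% and 13.9% of all 2833 genes. Lhx6, 1 of the 5, met the limit of 50 CPM only through its level in the Rspo3-rich barcodes. Its call as higher thus followed from the limit and is no result. In each pool 2 of the 8 lay below 0, and of these Gatm was past 1.5-fold lower. Several of the pericentral genes stepped down from Rspo3-rich over Wnt2-only to other barcodes. Thbd had 476 CPM, 136 CPM and 84.6 CPM in that order in the Trem2-/- pool, and 473 CPM, 126 CPM and 81.8 CPM in the Trem2+/+ pool. Cdh13 had 291 CPM, 62.1 CPM and 20.03 CPM in the Trem2-/- pool, and 268 CPM, 51.4 CPM and 34.6 CPM in the Trem2+/+ pool. Lhx6 had 131 CPM, 21.4 CPM and 6.68 CPM, and 268 CPM, 23.6 CPM and 9.44 CPM. In all of these the interval of the Rspo3-rich barcodes lay above that of the Wnt2-only ones in each pool. Kit differed less between these sets: its Rspo3-rich over Wnt2-only ratio was 0.34 (-0.01 to 0.68) in the Trem2-/- pool and 0.60 (0.16 to 1.02) in the Trem2+/+ pool.

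Other genes were also highest in the Rspo3-rich barcodes. Selp, which encodes the venular adhesion molecule P-selectin, had 141 CPM, 19.3 CPM and 21.1 CPM in Rspo3-rich, Wnt2-only and other barcodes of the Trem2-/- pool, and 197 CPM, 20.8 CPM and 11.01 CPM in those of the Trem2+/+ pool. Jam2, a junctional adhesion molecule of venules, had 864 CPM, 238 CPM and 264 CPM, and 1041 CPM, 214 CPM and 231 CPM. Fabp4, a fatty acid binding protein of venous and capillary endothelium, had 4281 CPM, 1085 CPM and 1004 CPM, and 4345 CPM, 822 CPM and 1033 CPM. Bmp4, a BMP ligand, had 11 UMIs in Rspo3-rich and 1 in Wnt2-only barcodes of the Trem2-/- pool, and 13 and 0 in those of the Trem2+/+ pool.

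Vwf, the gene for von Willebrand factor, which marks large-vessel endothelium, had 63.1 CPM (33.6 to 108) in the Rspo3-rich barcodes of the Trem2-/- pool and 363 CPM (266 to 484) in those of the Trem2+/+ pool. In Wnt2-only barcodes it had 11.04 CPM and 1.39 CPM. Rarb, a retinoic acid receptor, had 165 CPM and 49.0 CPM in the Trem2-/- pool, and 197 CPM and 66.6 CPM in the Trem2+/+ pool. Rdx, the membrane linker radixin, had 413 CPM and 108 CPM, and 386 CPM and 54.1 CPM. Plvap had 408 CPM and 121 CPM, and 655 CPM and 83.3 CPM.

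**Figure D3:**
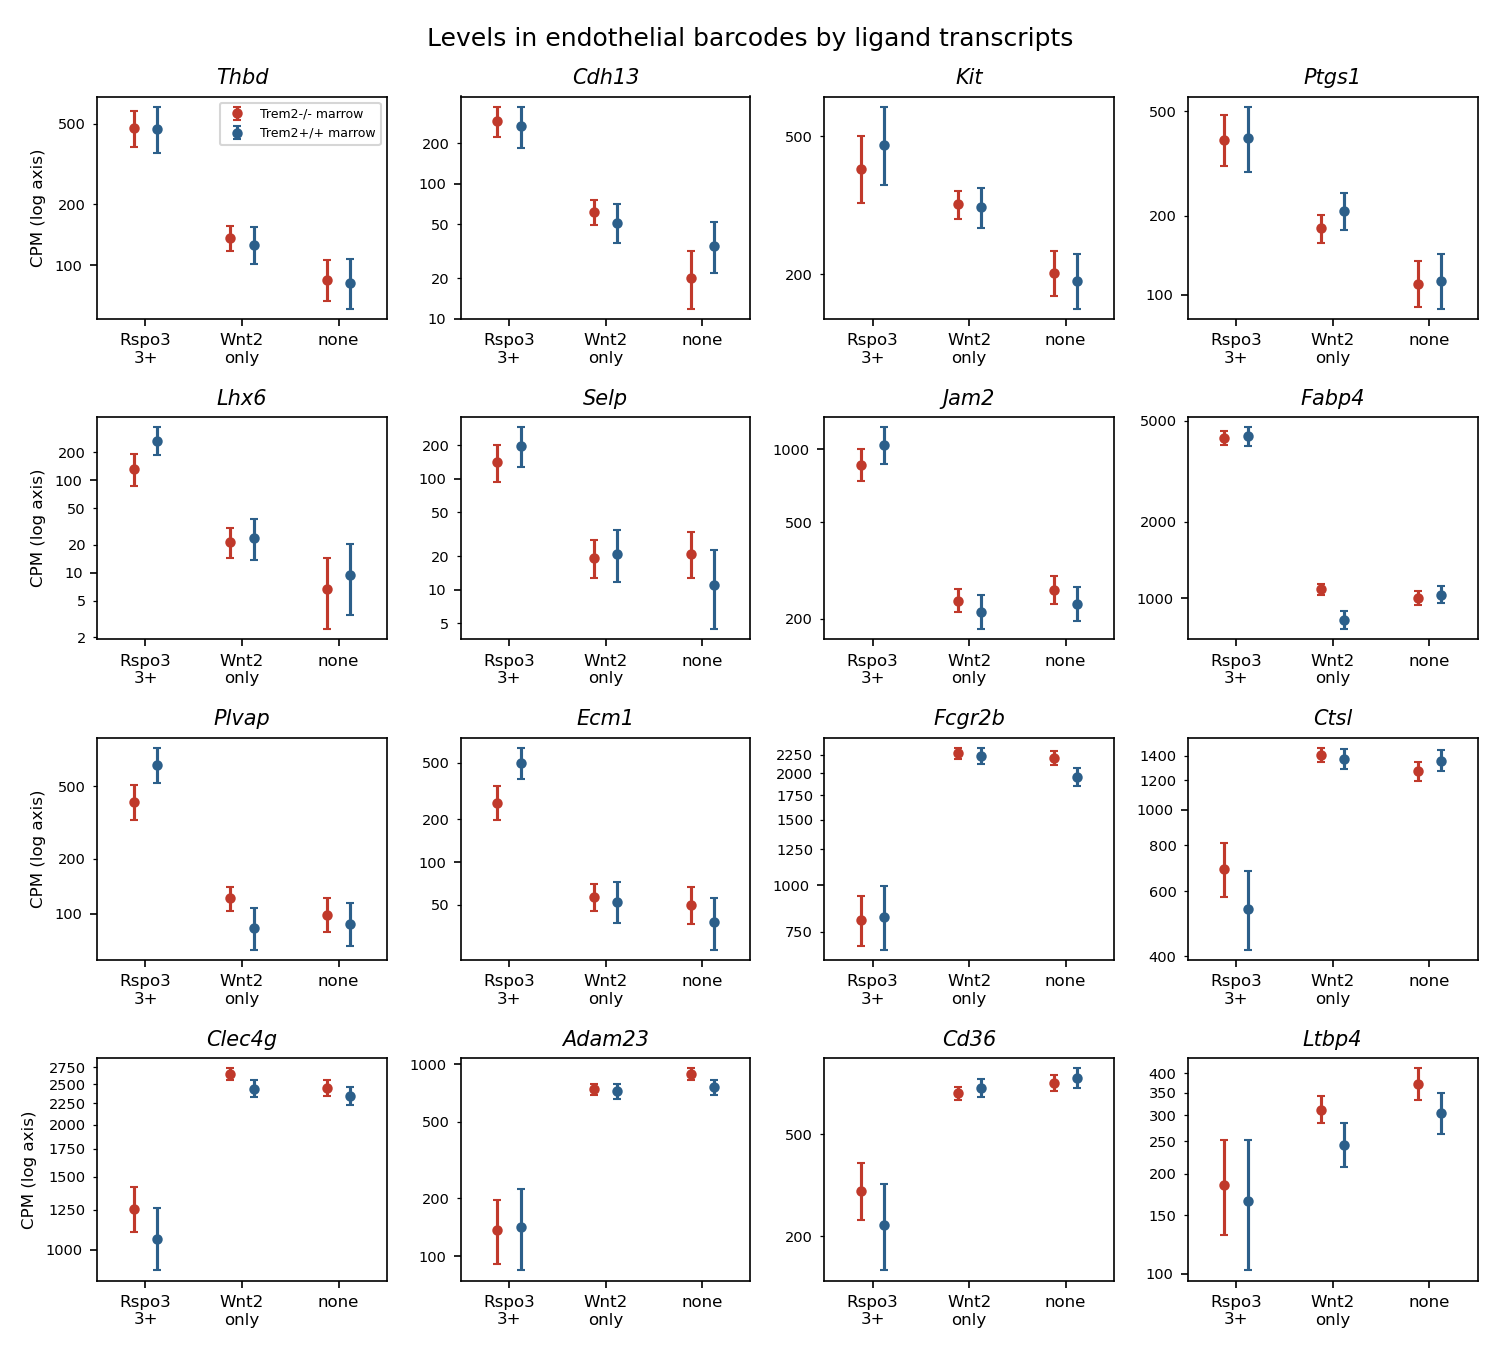
Levels in CPM (vertical log axes) of 16 genes in endothelial barcodes with at least 3 Rspo3 UMIs, with Wnt2 as the only ligand, and with none (left to right in each panel), for the Trem2-/- marrow pool (red) and the Trem2+/+ marrow pool (blue). Points are CPM of summed UMIs and bars exact 95% Poisson intervals; Thbd, Cdh13 and Lhx6 step down, Selp, Jam2 and Fabp4 are highest in the first set, and Fcgr2b and Adam23 are lowest there. Clec4g is a gene of the endothelial rule and is shown as a description only.

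Scavenging genes and a part of the sinusoidal genes were lower in the Rspo3-rich barcodes. Of all 2833 genes, 276 (9.74%) were past 1.5-fold lower than in Wnt2-only barcodes in the Trem2-/- pool and 404 (14.3%) in the Trem2+/+ pool, and 195 (6.88%) and 394 (13.9%) past 1.5-fold higher. Of the 25 general sinusoidal genes 11 and 12 were past 1.5-fold lower, with medians of -0.39 and -0.58, while 9 and 8 of the 25 lay above 0. Past 1.5-fold higher were Flt1, a VEGF receptor, and Plvap in both pools, and Pecam1, a junction protein of all endothelium, in the Trem2+/+ pool. Of the 20 scavenging genes 7 and 11 were past 1.5-fold lower and 0 higher, with medians of -0.39 and -0.61. Fcgr2b, the inhibitory Fc receptor by which these cells clear immune complexes, had 806 CPM in Rspo3-rich and 2266 CPM in Wnt2-only barcodes of the Trem2-/- pool, and 820.1 CPM and 2233 CPM in the Trem2+/+ pool.

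The lysosomal protease Ctsl had 689 CPM and 1409 CPM in the Trem2-/- pool, and 536 CPM and 1373 CPM in the Trem2+/+ pool. Adam23, a cell-surface disintegrin protein, had 136 CPM and 739 CPM, and 142 CPM and 723 CPM. Lyve1, high in midlobular sinusoids, had 481 CPM and 821 CPM, and 158 CPM and 809 CPM. F8, the gene for coagulation factor VIII, did not share the lower level, with log2 ratios of 0.11 and 0.25, and Flt1 had 0.68 and 0.74.

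Stellate marker sums were higher in the Rspo3-rich barcodes, and few barcodes held most of them. The 13 stellate markers summed to 3398 CPM in Rspo3-rich and 446 CPM in Wnt2-only barcodes of the Trem2-/- pool, and to 3682 CPM and 294 CPM in the Trem2+/+ pool. Of the Rspo3-rich barcodes 2 of 41 and 4 of 31 had at least 5 Dcn UMIs, with 99.4% and 100% of the Dcn in them. Without those, 39 and 27 barcodes were left, and Thbd (1.99 and 2.12), Cdh13 (2.42 and 2.64), Lhx6 (2.85 and 3.81), Selp (3.05 and 3.53), Jam2 (2.03 and 2.54) and Fabp4 (2.09 and 2.62) had log2 ratios over Wnt2-only barcodes as large as or larger than with them. Tgfbi, a matrix protein, was 3.15 and 2.06 with them and 0.06 and -0.47 without. Ecm1 was 2.21 and 3.24 with them and 0.75 and 1.77 without, so for these genes few barcodes set the value. The 7 neutrophil markers summed to 2476 CPM in Rspo3-rich and 201 CPM in Wnt2-only barcodes of the Trem2-/- pool, and to 647 CPM and 439 CPM in the Trem2+/+ pool, and their part in the result was not tested. Of the 478 UMIs of S100a8 and S100a9, the main neutrophil genes, in the 41 Rspo3-rich barcodes of the Trem2-/- pool, 1 barcode held 473.

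Between the marrow genotypes, ligand-positive barcodes were compared over 3376 genes with enough counts, not counting the genes of the rule (so Rspo3 is outside the counts that follow). At least 1.5-fold higher in the Trem2-/- pool were 30 genes, or 0.889%, and at least 1.5-fold lower were 49, or 1.45%. In the other endothelial barcodes it was 75 (2.25%) and 91 (2.73%) of 3333. The median over all genes was 0.01 in ligand-positive barcodes. With 1 pool per genotype these counts describe the pools and not the genotypes. The naming rule left out 1 of the 30 and 33 of the 49 for their level outside the endothelial rule or their class.

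Among the ligands, Wnt2 (495 CPM in the Trem2-/- pool and 551 CPM in the Trem2+/+ pool) and Wnt9b (42.9 CPM and 45.2 CPM) had intervals that overlapped. All of these levels are of genes that chose the members and are given as a description only. Rspo3 over all endothelial barcodes, whatever their ligands, was 184 CPM (168 to 200.2) in the Trem2-/- pool and 322 CPM (295 to 351) in the Trem2+/+ pool, again as a description. The share of endothelial barcodes with an Rspo3 UMI was 10.2% (8.21 to 12.5) and 11.6% (9.06 to 14.5), with intervals that overlapped. With nearly all of the transcript in few barcodes, as above, the CPM intervals cover only the counting of UMIs and not the sampling of barcodes.

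Of the zonation genes with enough counts other than the ligands, Ednrb was lower in the Trem2-/- pool and the rest were within 1.5-fold. Thbd had a Trem2-/- over Trem2+/+ log2 ratio of 0.05 (-0.21 to 0.32), Cdh13 0.04 (-0.33 to 0.42), Kit -0.03 (-0.23 to 0.16) and Ptgs1 -0.17 (-0.40 to 0.07). Of the pericentral list 8 genes had enough counts, and Ednrb, the endothelin B receptor, was the one past 1.5-fold. It had 82.1 CPM (69.6 to 96.2) in the Trem2-/- pool and 148 CPM (126 to 174) in the Trem2+/+ pool. Of the periportal list 7 had enough counts and none was past 1.5-fold, with a median of 0.13.

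Cyp26b1, which encodes an enzyme that breaks down retinoic acid, was the gene furthest up in the Trem2-/- pool. Among ligand-positive barcodes it had 2091 UMIs and 1122 CPM (1074 to 1171) there, and 510 UMIs and 501 CPM (458 to 546) in the Trem2+/+ pool. The log2 ratio was 1.16 (1.02 to 1.31). Over 14 alternative settings the ratio lay between 0.96 and 1.28. The transcript was spread over the members: the 5% with most of it held 20.9% of its UMIs in the Trem2-/- pool and 24.7% in the Trem2+/+ pool, and the median member had 3 UMIs and 1 UMI.

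Cyp26b1 was also higher in the other endothelial barcodes. There it had 941 CPM and 462 CPM, a log2 ratio of 1.03 (0.83 to 1.22), and in Rspo3-rich barcodes 1044 CPM and 584 CPM. Thinned to 2000 UMIs, 76.4% (70.8 to 81.4) of ligand-positive barcodes had the transcript in the Trem2-/- pool and 55.1% (47.2 to 62.8) in the Trem2+/+ pool; unthinned it was 75.7% and 64.1%. In lymphocyte barcodes it was 1.495% and 0.183%. Outside the endothelial rule it had 41.7 CPM and 10.7 CPM.

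Other retinoid genes did not share the difference. Of 23 genes of retinoid transport, metabolism and reception, a list made after the data were seen, 7 had enough counts, and Cyp26b1 was the one past 1.5-fold. Dhrs3, which reduces retinaldehyde and is itself induced by retinoic acid, had 291 CPM in the Trem2-/- pool and 288 CPM in the Trem2+/+ pool. Rarb, another retinoic acid target, had 62.2 CPM and 84.4 CPM. Cyp26a1 and Cyp26c1, the sister enzymes, had 0 UMIs in the members of both pools.

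**Figure D4:**
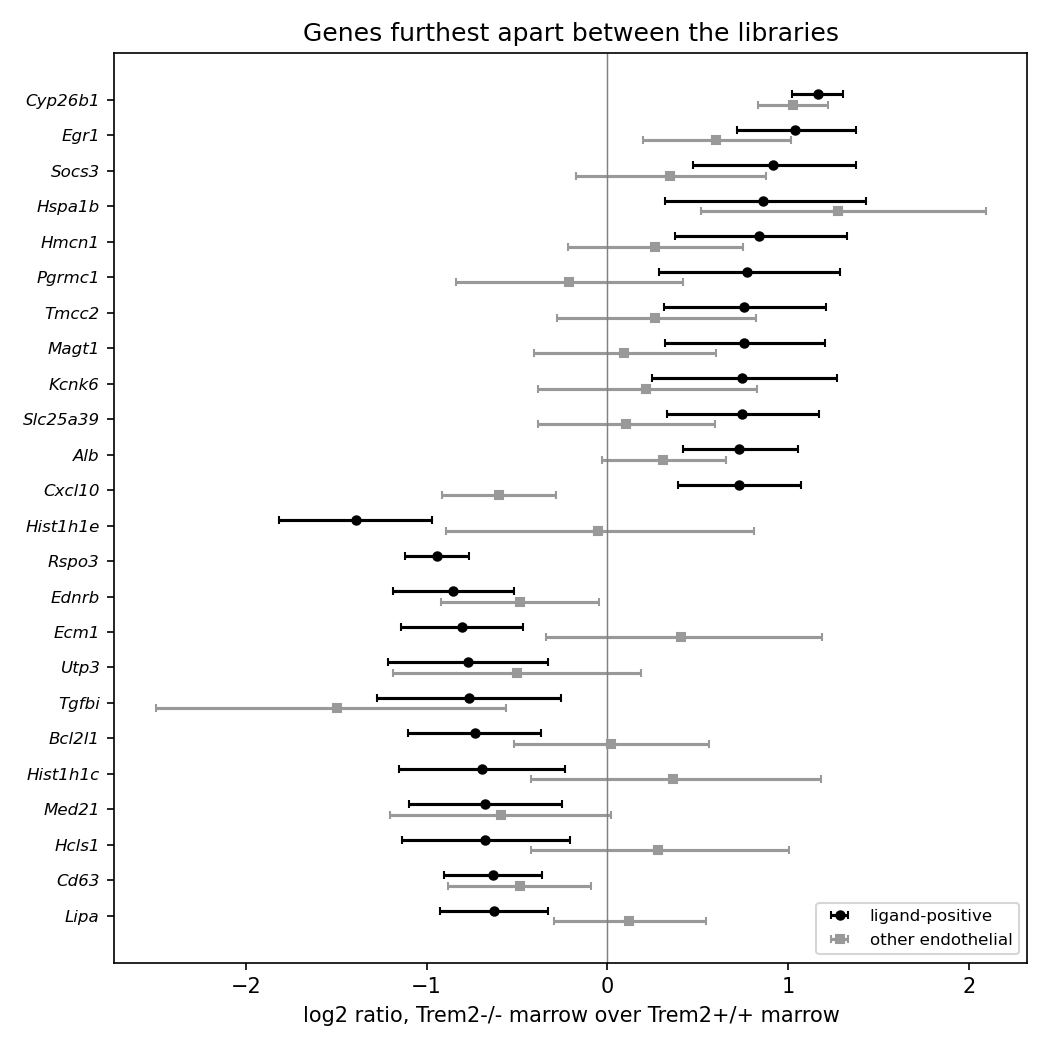
Log2 ratio of the Trem2-/- marrow pool over the Trem2+/+ marrow pool (horizontal axis) for the 24 genes named by the size rule, in ligand-positive barcodes (black circles) and in other endothelial barcodes (grey squares; none for Rspo3, a gene of the rule that is 0 there by it and is shown as a description). Bars are 95% counting intervals; Cyp26b1 stands at 1.16 and 1.03, while Hist1h1e, lowest in ligand-positive barcodes, is near 0 in the others.

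Some immediate-early and heat shock genes were higher in the Trem2-/- pool. Of 25 such genes 23 had enough counts, and Fosb, Egr1, Socs3 and Hspa1b were past 1.5-fold higher and Atf3 lower, with a median of 0.23. Of all 3376 genes 0.889% were past 1.5-fold higher and 1.45% lower. Egr1, a transcription factor induced within minutes of many stimuli, had 198 CPM (178 to 219) in the Trem2-/- pool and 96.2 CPM (78.1 to 117) in the Trem2+/+ pool. Socs3, the feedback inhibitor of cytokine signalling through STAT3, had 102 CPM and 54.0 CPM. These genes also respond to tissue dissociation, whose part in the result was not tested. In other endothelial barcodes 23 of the 25 genes had enough counts, with a median of 0.30. There 5 were past 1.5-fold higher and 0 lower, against 2.25% and 2.73% of all genes, and Egr1 had 179 CPM and 118 CPM.

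Of the remaining genes named on the higher side, Cxcl10, a chemokine for T cells, had 159 CPM and 96.2 CPM in ligand-positive barcodes, and 183 CPM and 277 CPM in the other endothelial barcodes. Its direction thus differed between the sets, and that difference was not tested. The ligand-positive log2 ratio of 0.73 was 0.17 in barcodes without leukocyte UMIs and 0.29 without the deepest 5% of barcodes. Hmcn1 (a basement membrane hemicentin), Pgrmc1 (a haem-binding membrane protein), Tmcc2, Magt1 (a magnesium transporter), Kcnk6 (a potassium channel) and Slc25a39 (a mitochondrial glutathione carrier) had log2 ratios between 0.74 and 0.84. Of these Tmcc2 was at -0.040 and Kcnk6 at 0.48 in barcodes without leukocyte UMIs, and Slc25a39 was at -0.049, Pgrmc1 at 0.18 and Magt1 at 0.34 after thinning. Alb, the hepatocyte gene for albumin, had 181 CPM and 109 CPM, a log2 ratio of 0.73 that was 0.17 after thinning. With Apoa2 it made 2 of the 4 hepatocyte markers with enough counts past 1.5-fold higher, against 0.889% of all genes. The 13 hepatocyte markers summed to 569 CPM and 411 CPM, and their part in the result was not tested. Of 27 BMP and angiocrine genes 14 had enough counts, and Kitl, the gene for stem cell factor, was the one past 1.5-fold, at 104 CPM and 65.8 CPM.

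On the lower side Hist1h1e, a linker histone gene, had the lowest log2 ratio of the named genes, at -1.39. It had 43.5 CPM in the Trem2-/- pool and 114 CPM in the Trem2+/+ pool, and Hist1h1c, another linker histone gene, had 46.7 CPM and 75.6 CPM, at -0.70. In barcodes without leukocyte UMIs both ran the other way, with log2 ratios of 0.30 and 0.31. Bcl2l1, which encodes the survival protein BCL-XL, had 70.8 CPM and 118 CPM, a log2 ratio of -0.73 (-1.10 to -0.37), while in other endothelial barcodes it had 81.2 CPM and 80.2 CPM. As a mean over barcodes its ratio was -0.45. The matrix genes Ecm1 and Tgfbi were lower too, at -0.80 and -0.76, but without the deepest 5% of barcodes Ecm1 was at 0.0038, and with at least 2 ligand UMIs Tgfbi was at -0.25. Stellate markers, which moved with both genes above, summed to 787 CPM and 901 CPM in these sets, and their part in the result was not tested. Cd63, a tetraspanin of endosomes, and Lipa, lysosomal acid lipase, were each lower, at -0.63, and were also lower outside the endothelial rule, at -1.47 and -0.96. After thinning they were within 1.5-fold, at -0.27 and -0.15, and Cd63 was at -0.14 in members with at least 2 ligand UMIs. Utp3 (a ribosome assembly factor), Med21 (a Mediator subunit) and Hcls1 (a haematopoietic cortactin homologue) completed the named genes, with log2 ratios between -0.77 and -0.67. Hcls1 was at -0.20 after thinning, and Med21 at -0.52 in barcodes without leukocyte UMIs.

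Leukocyte RNA differed between the pools in these barcodes. The 10 leukocyte markers summed to 883 CPM in ligand-positive barcodes of the Trem2-/- pool and 1614 CPM in those of the Trem2+/+ pool. All 7 with enough counts were past 1.5-fold lower, against 1.45% of all genes, and none of the 10 was at 0. The 13 macrophage markers summed to 822 CPM and 1461 CPM, with Timd4 at 0 UMIs in the Trem2-/- pool. The part of these cells in the results of this comparison was not tested, other than in the barcodes without leukocyte UMIs below. MHC class II genes ran alongside: Cd74, the invariant chain, had 744 CPM and 1726 CPM, and H2-Aa, H2-Ab1 and H2-Eb1, the class II chains, had log2 ratios of -1.14, -1.33 and -1.13. Most of their UMIs lay in few barcodes: a class II UMI was found in 283 of 453 and 176 of 276 members, but the 5% with most held 82.4% of these UMIs in the Trem2-/- pool and 86.7% in the Trem2+/+ pool, and the median member had 1 in each.

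Members with no UMI of Ptprc, Tyrobp, C1qa, C1qb, C1qc, Lyz2 or Cd52 numbered 182 and 103. In these Cd74 had 167 CPM (137 to 201) in the Trem2-/- pool and 162 CPM (121 to 211) in the Trem2+/+ pool. H2-Aa had 63.1 CPM and 29.9 CPM, H2-Eb1 70.7 CPM and 35.9 CPM, and H2-Ab1 40.6 CPM and 59.9 CPM, from 10 to 47 UMIs each. Cd74 was thus level between the pools in these barcodes, and H2-Aa and H2-Eb1 ran the other way. Cyp26b1 had 1183 CPM and 530 CPM in the same barcodes, and Ednrb 82.7 CPM and 206 CPM, so these differences were as large there.

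**Figure D5:**
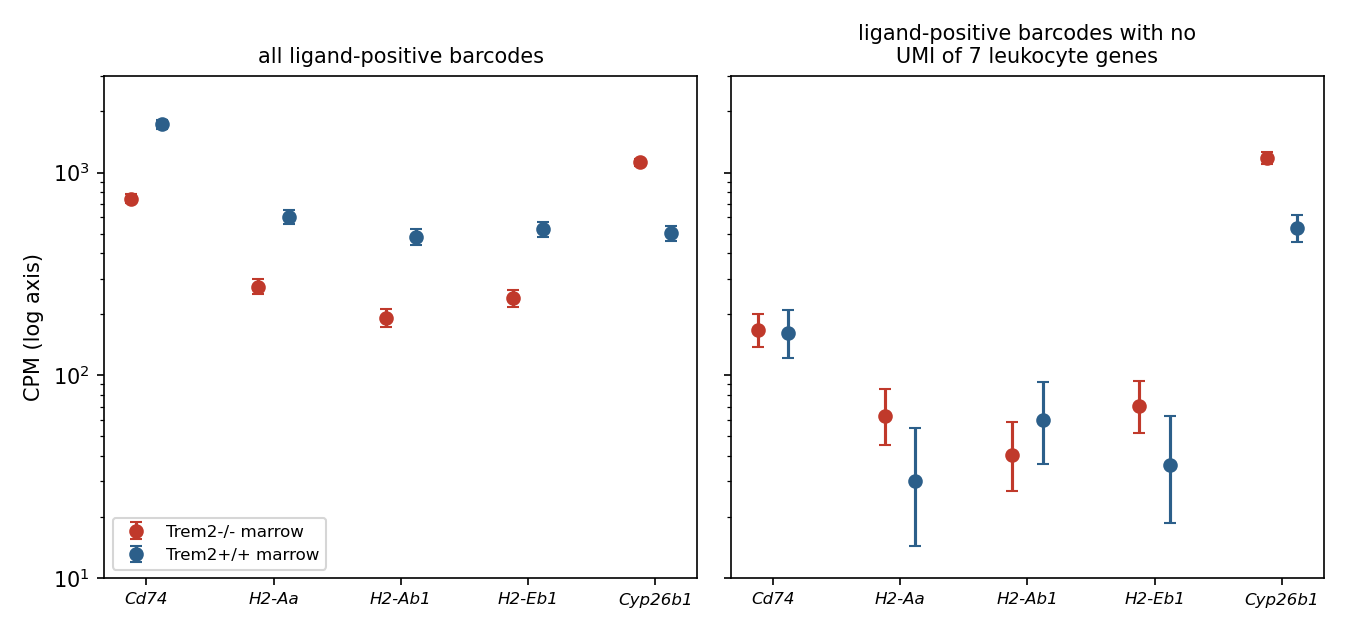
CPM (log axis) of 4 MHC class II genes and of Cyp26b1 in all ligand-positive barcodes (left panel) and in those without a UMI of the leukocyte genes (right panel), for the Trem2-/- marrow pool (red) and the Trem2+/+ marrow pool (blue). Bars are exact 95% Poisson intervals; Cd74 stands at 744 and 1726 CPM on the left and at 167 and 162 CPM on the right, and Cyp26b1 at 1122 and 501 CPM and at 1183 and 530 CPM.

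Class I presentation and interferon genes were close between the pools. B2m, the class I light chain, had 3513 CPM and 3652 CPM, and H2-K1, a heavy chain, had 1698 CPM and 1763 CPM. Of 28 interferon-induced genes 20 had enough counts and none was past 1.5-fold in either direction, with a median of -0.13. Ifitm3, an antiviral membrane protein, had 2545 CPM and 3180 CPM. Of the 25 general sinusoidal genes none was past 1.5-fold, with a median of 0.16, and of the 20 scavenging genes none, with a median of 0.03.

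Across the genotype contrast, 3153 genes had enough counts in both the ligand-positive and the other endothelial barcodes. Of these, 5 were past 1.5-fold higher in both sets. That is 16.7% of the 30 called in ligand-positive barcodes and 7.81% of the 64 called in the others. These were Apoa2, Cyp26b1, Egr1, Fosb and Hspa1b. Past 1.5-fold lower in both were 16 genes, 38.1% of 42 and 21.3% of 75. Over all genes with enough counts in ligand-positive barcodes, 0.889% were past 1.5-fold higher and 1.45% lower. In the other endothelial barcodes it was 2.25% and 2.73%. Of the 16, C1qa, C1qb, C1qc and Csf1r are on the macrophage marker list and Tyrobp and Fcer1g on the leukocyte marker list.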

How the data were processed

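The deposited files hold raw UMI counts per gene and barcode, 32285 genes by 6362 barcodes (25288032 UMIs) for Trem2-/- marrow and by 7012 barcodes (27238586 UMIs) for Trem2+/+ marrow, produced by Cell Ranger (version 5.0.1, per the file headers) on mm10 per the submitters' processing notes. The annotation release and read filters are not given in the sources used here. Counts were summed over each set of barcodes and scaled to CPM, with exact 95% Poisson intervals for levels, Clopper-Pearson intervals for shares and exact conditional binomial intervals for log2 ratios. These cover counting error only. Genes needed a mean of 50 CPM and 50 UMIs over the sets compared, and 1.5-fold was the size rule. Named genes were the 12 furthest in each direction past it, without genes whose CPM in the members was under 0.2 of that outside the endothelial rule and without immunoglobulin, T cell receptor, haemoglobin, mitochondrial, ribosomal and unnamed genes; genes of the lists could be named at any size. The members and the 27 gene lists were chosen with earlier results of these data known. The ratio script was tested on simulated data. Python 3.11.15, numpy 2.4.6, scipy 1.17.1, pandas 2.3.3 and matplotlib 3.10.9 were used. In all 16 alternatives were tried. No doublet caller was run. Some genes that the naming rule or the lists would give are not reported here.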

Additional observations from a re-analysis of the deposited data

How the results depend on the processing

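With 1 pool per genotype, differences between the genotypes have no replicate check. No paired analysis was possible because each group has 1 library and no result comes from a test across samples. Among values of single genes, 1474 stayed within the counting interval of the main value, 178 moved and 12 changed sign from a main value past 1.5-fold. Ratios with a main value within 1.5-fold also crossed 0 in some settings and are not among the 12. Examples are the ligand-positive over other ratios of Selp in the Trem2-/- pool (0.56, down to -0.27) and of Ntn4 in the Trem2+/+ pool (-0.46, up to 0.28). Among shares, counts and list medians, 100 were the same and 42 moved. Leaving out barcodes with at least 5 Dcn UMIs or with at least 3 Rspo3 UMIs was chosen after seeing the data. The cause was not tested except where fewer barcodes or a changed limit on counts gives it. The ligand-positive share of endothelial barcodes (56.48% in the Trem2-/- pool and 49.20% in the Trem2+/+ pool) was 40.95% and 36.10% when 2 ligand UMIs were needed, 60.82% and 55.09% under stricter barcode limits of 500 genes and 5% mitochondrial UMIs, 47.99% in the Trem2-/- pool after thinning, and 54.18% in the Trem2+/+ pool with at least 8 endothelial UMIs. The count of genes higher in ligand-positive barcodes of both pools (14) was 36 with 2 ligand UMIs, 22 without leukocyte UMIs, 22 with means over barcodes, 22 with the other barcodes weighted to the same depth, 44 at limits of 20 CPM and 20 UMIs, 984 at a limit of 1 UMI and 3 at 2-fold. The count of lower genes (16) was 35 with 2 ligand UMIs, 5 with 8 endothelial UMIs, 3 without leukocyte UMIs, 33 without the deepest 5%, 50 at 20 CPM, 711 at 1 UMI, 29 with depth weighting and 4 at 2-fold. Between the genotypes, the count of higher genes in ligand-positive barcodes (30) was 62 with 2 ligand UMIs, 145 thinned, 161 without leukocyte UMIs, 46 without Rspo3-rich barcodes, 55 with means over barcodes, 198 at 20 CPM, 3136 at 1 UMI and 3 at 2-fold. The count of lower genes (49) was 115 thinned, 141 without leukocyte UMIs, 245 at 20 CPM, 2811 at 1 UMI and 12 at 2-fold. The pericentral list's median in the Trem2-/- pool (0.72) was 0.45 thinned, 0.33 without leukocyte UMIs and 1.03 with depth weighting. In the Trem2+/+ pool (0.82) it was 0.50 thinned, 0.47 with 8 endothelial UMIs, 0.43 without leukocyte UMIs, 0.46 without Rspo3-rich barcodes and 0.38 with means over barcodes. The periportal medians moved in none of the alternatives run. Of the 12 sign changes from past 1.5-fold, the ligand-positive over other ratio of Dcn was -0.093 in the Trem2-/- pool and -0.62 in the Trem2+/+ pool without the Dcn-rich barcodes. That of H2-Eb1 in the Trem2-/- pool was 0.43 without leukocyte UMIs. The genotype ratio without leukocyte UMIs was -0.040 for Tmcc2, 0.30 for Hist1h1e, 0.31 for Hist1h1c, 0.046 for Cd74, 1.08 for H2-Aa and 0.98 for H2-Eb1. Thinned, it was -0.049 for Slc25a39 and 0.15 for Lhx6, and without the deepest 5% it was 0.0038 for Ecm1.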
